A study of Homo sapiens with 11 samples.

Results

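The miRNAs described here are the 46 mature members of the imprinted miR-379/miR-410 cluster on chromosome 14q32, out of 2576 mature miRNAs in the count tables, of which 1641 had at least 1 count. The members were taken from a fixed list of names and lie in 34 hairpins on the plus strand between chr14:101488403-101533138 (GRCh37), a stretch of 44.7 kb. In the gene annotation of that build, 12 hairpins lay in introns of the long non-coding RNA MEG8, 11 in introns and 6 in exons of MEG9, and the 5 from MIR376C to MIR376A1 lay between annotated long genes. Of the 46 members, 43 passed 3 counts in at least 1 library, and those with enough counts to be tested numbered 33 in co-treatment and 32 in pre-treatment. A further 27 mature miRNAs of the same stretch were not on the list.

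Small RNA was sequenced from SH-SY5Y cells, a neuroblastoma subline of SK-N-SH that takes on a neuron-like form in all-trans retinoic acid (ATRA). Every library came from cells given 10 µM ATRA for 7 days. In co-treatment, H2O2 at 10 µM was present for the same 7 days (3 libraries, with 3 controls given ATRA alone), and in pre-treatment, cells received 10 µM H2O2 for 72 h, which was removed before the 7 days of ATRA (3 libraries, with 2 controls). The study's methods speak of biological triplicates, and only 2 pre-treatment controls were analysed here. The model is 1 cell line from 1 tumour, and fewer cells expressing a miRNA and less of it per cell cannot be told apart in these bulk samples.

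Imprinted genes are read from the chromosome of only one parent. In the DLK1-DIO3 domain of 14q32, the non-coding RNAs are read from the maternal copy, and the cluster is thought to be cut from long primary transcripts by Drosha and then trimmed by Dicer, which leaves a duplex with a 5p and a 3p arm. The cluster is known for its expression in brain and placenta and for its induction by neuronal activity. A miRNA pairs with its target mRNAs mainly through its seed, bases 2 to 8 from the 5′ end.

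The 46 members carried 42 different seeds, and 4 seeds were each shared by a pair of members. The mature sequences of the miRNAs that the results turn on are printed 5′ to 3′ from the RefSeq table of the GRCh38.p14 assembly, with the seed in capitals. The 10 members called changed in co-treatment (defined below) are shown first, since they differ from the next set in base composition.
hsa-miR-655-3p: aUAAUACAugguuaaccucuuu
hsa-miR-496: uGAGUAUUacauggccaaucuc
hsa-miR-376b-3p: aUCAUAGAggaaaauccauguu
hsa-miR-889-3p: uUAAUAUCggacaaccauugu
hsa-miR-376a-5p: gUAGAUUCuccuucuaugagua
hsa-miR-369-3p: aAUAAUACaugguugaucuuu
hsa-miR-758-3p: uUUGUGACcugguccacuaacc
hsa-miR-495-3p: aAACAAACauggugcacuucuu
hsa-miR-539-3p: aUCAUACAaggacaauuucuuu
hsa-miR-485-3p: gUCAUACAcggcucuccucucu
The seeds of miR-539-3p and miR-485-3p were identical (UCAUACA), whereas most of the bases outside the seed differed. A run of 13 bases was shared by miR-369-3p and miR-655-3p, shifted by 1 base, so their seeds overlap without being the same.

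The 8 members called lower in pre-treatment are shown next.
hsa-miR-323b-3p: cCCAAUACacggucgaccucuu
hsa-miR-485-5p: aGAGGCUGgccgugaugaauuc
hsa-miR-323a-3p: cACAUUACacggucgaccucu
hsa-miR-134-5p: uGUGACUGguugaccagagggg
hsa-miR-409-3p: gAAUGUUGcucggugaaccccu
hsa-miR-382-5p: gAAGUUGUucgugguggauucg
hsa-miR-369-5p: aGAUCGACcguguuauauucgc
hsa-miR-543: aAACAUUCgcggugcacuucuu
A run of 16 bases (uacacggucgaccucu) was common to miR-323a-3p and miR-323b-3p, although their seeds differed and their hairpins lay apart, MIR323A at chr14:101492069-101492154 and MIR323B at chr14:101522556-101522637. The last 12 bases of miR-543 were found again in miR-495-3p, whose hairpin is the next one along the cluster. The abundant members that were called in neither experiment had the following sequences.
hsa-miR-379-5p: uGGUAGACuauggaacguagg
hsa-miR-411-5p: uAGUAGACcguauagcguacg
hsa-miR-654-3p: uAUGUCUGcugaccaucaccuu
hsa-miR-381-3p: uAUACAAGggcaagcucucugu
hsa-miR-494-3p: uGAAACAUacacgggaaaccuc

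Library totals ranged from 5343953 to 8927582 counts, and the members together took 0.0335% to 0.0968% of them. Levels are given as CPM, the count relative to the library total after TMM scaling, which brings libraries of different depth and composition to a common level. A miRNA with 3 counts lay at 0.336 CPM in the deepest library and 0.561 CPM in the shallowest, limits that cover counting error only. The pre-treatment controls stood apart from each other. Their log2 CPM values correlated at r = 0.94 over 868 tested miRNAs, against at least 0.98 between any other libraries of 1 group. Markers of white blood cells summed to 120.3 CPM in pre-treatment control 1 and 33.4 to 40.7 CPM in the other 4 pre-treatment libraries, and markers of epithelial cells to 176.1 CPM against 43.9 to 50.2 CPM. Much of each sum in control 1 was 1 miRNA, miR-223-3p at 72.5 CPM and miR-205-5p at 135.2 CPM. In control 2 these were at 0.61 and 4.88 CPM. The other epithelial markers counted were at most at 23.9 CPM each in these controls. The epithelial sums cover the 6 of 7 listed markers found by name and leave out miR-203a, which was called in neither experiment. Of the 7 neuronal markers on the list, miR-128-3p, miR-7-5p, miR-218-5p and miR-138-5p were at 32.8 CPM or more in every library. Counts of miR-124-3p were 0 to 2 in the controls of either experiment, 2 to 7 in pre-treatment H2O2 libraries and 0 in co-treatment H2O2 libraries. At most, miR-9-5p reached 6.36 CPM and miR-181a-5p 1.49 CPM. The list summed to 2320 to 2964 CPM in co-treatment controls, 2335 to 2617 CPM in co-treatment H2O2 libraries, 1683 and 2324 CPM in pre-treatment controls and 3069 to 3227 CPM in pre-treatment H2O2 libraries. The liver miRNA miR-122-5p was at 92.5 and 261.0 CPM in pre-treatment controls against 536.7 to 787.6 CPM with H2O2, and at 151.6 to 539.7 CPM in co-treatment. Red blood cell markers summed to 2.01 and 3.81 CPM in pre-treatment controls against 10.2 to 14.2 CPM with H2O2, and muscle markers to at most 5.69 CPM in any library, with miR-133a-3p at 0. The part of these differences in the results was not tested, and the calls and abundant members of pre-treatment are given below against each control where the controls disagreed.

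The cluster was expressed at a modest level that a few members carried. The highest mean over the 11 libraries was that of miR-382-5p (82.2 CPM, rank 214 of all miRNAs), followed by miR-323a-3p (76.5 CPM), miR-379-5p (70.6 CPM), miR-411-5p (69.1 CPM), miR-409-3p (64.5 CPM), miR-654-3p (62.5 CPM), miR-381-3p (38.4 CPM), miR-889-3p (30.8 CPM), miR-494-3p (26.5 CPM) and miR-369-5p (22.5 CPM). These 10 held 78.4% of the member counts. Their order is a description, because neighbouring means in it lay closer together than the libraries of a group did.

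**Figure D1:**
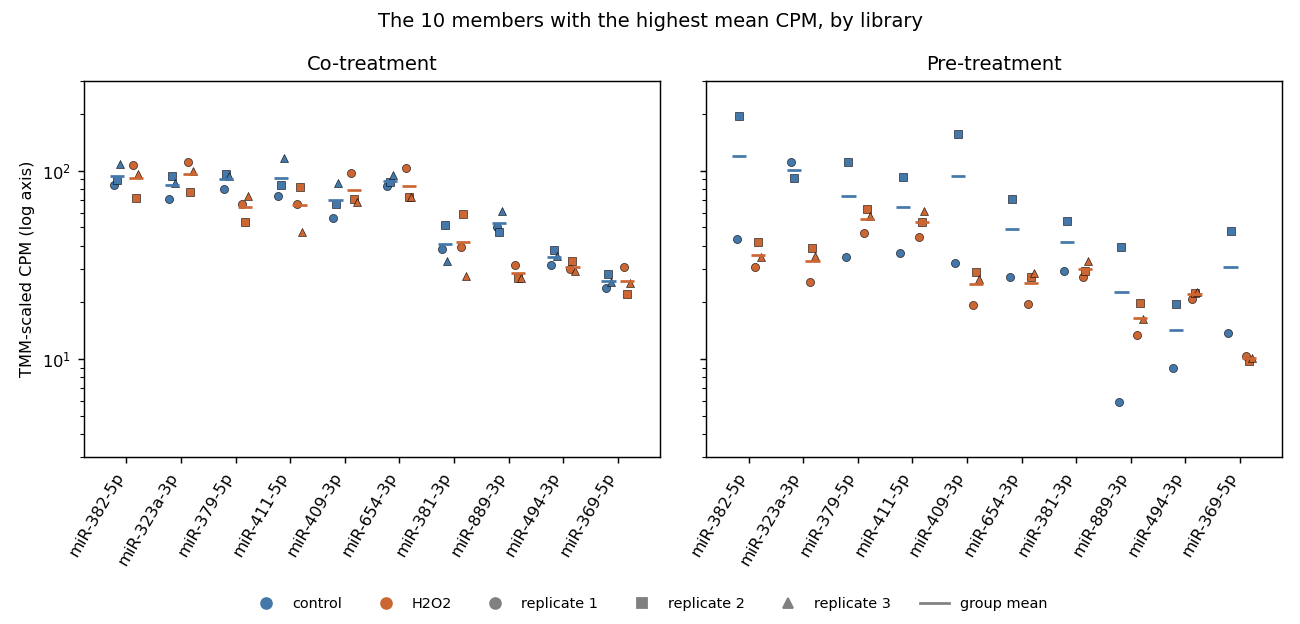
TMM-scaled CPM (log axis) of the 10 members with the highest mean, in co-treatment (left) and pre-treatment (right). Each point is 1 library, marker shapes give the replicate number and lines the group mean. In co-treatment only miR-889-3p was called lower, while in pre-treatment control 2 lay above control 1 for 9 of the 10, with miR-323a-3p the exception.

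At the other end, 2 members cut from 2 hairpins each were nearly absent. No library held a count of miR-329-3p (MIR329-1 and MIR329-2), and miR-376a-3p (MIR376A2 and MIR376A1) had 1 count in 1 library, although miR-376b-3p, which shares its seed and its first 18 bases, reached 73 counts. Across the whole table, 94 of 134 mature miRNAs with more than 1 hairpin in RefSeq (70.1%) had at most 1 count over the 11 libraries, against 788 of 2128 with a single hairpin (37%). How reads that align to more than 1 place were counted is not given in the sources used here, and their part in these zeros was not tested. The 5p arm of the MIR654 hairpin (miR-654-5p) also had at most 1 count in any library, beside 168 to 904 counts of miR-654-3p.

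Added together, the members differed little in co-treatment. Their summed level was 785.8, 886.6 and 956.8 CPM in the controls and 857.5, 744.4 and 701.8 CPM with H2O2, a ratio of 0.876 with overlapping groups. In pre-treatment, the sum was 441.5 and 1075 CPM in the controls and 329.5, 427.2 and 425.9 CPM with H2O2. All 3 H2O2 libraries lay below both controls, but the controls differed from each other by more than control 1 differed from the H2O2 libraries. The log2 difference of the group means was −0.82, with −0.17 when only control 1 was used and −1.39 when only control 2 was used.

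With H2O2 present during differentiation, single members of the cluster were lower than in controls, most of them 3p arms. miRNAs were called at a false discovery rate (FDR, Benjamini-Hochberg over all tested miRNAs) under 0.05 and an absolute log2 fold change (log2FC, H2O2 against control) above 0.6, with the exact test of edgeR. By this rule 10 of 33 tested members (30.3%) were called, 9 lower and 1 higher, beside 26.2% of all 790 tested miRNAs. The share of members called was close to that background, whereas the direction was uneven, with 15.6% of all tested miRNAs called lower and 10.6% higher. The median log2FC was −0.52 over the tested members and −0.04 over all tested miRNAs. By arm, 1 of 11 tested 5p members and 9 of 22 tested 3p members were called. The tested 3p members had a lower median GC content than the 5p members (41.9% against 47.8%), and arm and base composition were not separated. In pre-treatment the arms differed the other way, with 4 of 12 tested 5p members and 4 of 20 tested 3p members called, beside 15.3% of all tested miRNAs.

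Among the 9 lower members, miR-496 and miR-495-3p passed the filter through the controls alone, with no H2O2 library above it, so that only a fall could be called for them. Apart from such members, 8 of 31 were called, 7 of them lower. The lowest log2FCs were those of miR-496 and miR-655-3p, the latter with 1 H2O2 library above the filter. The N-cadherin mRNA has been described as a target of miR-496, which had 17, 13 and 17 counts in the controls and 6, 3 and 2 with H2O2 (2.26 ± 0.49 and 0.49 ± 0.21 CPM, mean ± SD, n = 3 each). Every H2O2 library was below every control, with a log2FC of −2.15 ± 0.61 (SE) and an FDR of 0.00249. For miR-655-3p the controls held 26, 17 and 36 counts and the H2O2 libraries 13, 4 and 4, again without overlap (log2FC −2.01 ± 0.53, FDR 0.00174). These were the only members called whichever of the 6 libraries was left out.

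In the miR-376 family, RNA editing by ADAR enzymes can alter the seed, and 2 of its 5 members on the list were called lower. Controls held 11.1, 6.54 and 10.1 CPM of miR-376b-3p and H2O2 libraries 3.42, 5.42 and 1.59 CPM, all lower than the controls (log2FC −1.42 ± 0.41, FDR 0.00771). The 5p arm of the MIR376A1 hairpin, miR-376a-5p, was at 4.92, 2.404 and 6.36 CPM in controls and at 1.94, 1.69 and 1.33 CPM with H2O2 (log2FC −1.45 ± 0.46, FDR 0.0122). The neighbouring miR-376c-3p had a log2FC of −0.81 and did not pass (FDR 0.0595), although its groups did not overlap, and miR-376a-2-5p and miR-376a-3p had too few counts to be tested.

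Of the abundant members, miR-889-3p was the one called. It stood at 50.1, 47.0 and 61.5 CPM in the controls and at 31.7, 26.9 and 26.9 CPM with H2O2, so that the groups were well apart (log2FC −0.89 ± 0.26, FDR 0.0102). A smaller but equally separate fall was seen for miR-369-3p, which can bind AU-rich elements of mRNAs. Its controls held 25.2, 34.6 and 26.3 CPM and its H2O2 libraries 17.5, 14.7 and 15.3 CPM (log2FC −0.86 ± 0.28, FDR 0.0192).

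The other 3 falls did not pass a second test. Controls had 11.7, 8.15 and 14.1 CPM of miR-539-3p against 6.51, 7.11 and 1.59 CPM with H2O2 (log2FC −1.16 ± 0.43, FDR 0.0428), and the third H2O2 library lay far below the other two. Counts of miR-495-3p were 15, 10 and 12 in controls and 4, 3 and 5 with H2O2 (log2FC −1.68 ± 0.62, FDR 0.0326). For miR-758-3p they were 19, 7 and 25 against 3, 7 and 5 (log2FC −1.79 ± 0.64, FDR 0.0259), with an overlap at 7 counts. In the quasi-likelihood test of edgeR, which allows for uncertainty in the spread, these 3 did not pass (FDR 0.06 for miR-539-3p, 0.0573 for miR-495-3p and 0.0532 for miR-758-3p), which left 6 members lower and 1 higher, beside 14.2% and 8.73% of all tested miRNAs.

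The only member called higher was miR-485-3p, which shares its seed with miR-539-3p. It was at 5.24, 9.35 and 6.08 CPM in the controls and at 18.8, 8.64 and 14.5 CPM with H2O2, where the second H2O2 library fell among the controls (log2FC 1.02 ± 0.35, FDR 0.0310). In one treatment, then, the 2 members with the seed UCAUACA had called changes of opposite sign. Their GC contents were 27.3% for miR-539-3p and 54.5% for miR-485-3p.

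The remaining abundant members were not called in co-treatment. The controls of miR-382-5p held 83.8, 89.1 and 109 CPM and the H2O2 libraries 107, 71.5 and 96.6 CPM, and those of miR-323a-3p 70.9, 94.0 and 85.8 CPM against 112, 76.7 and 99.5 CPM. The log2FC was −0.03 ± 0.27 for miR-382-5p and 0.20 ± 0.27 for miR-323a-3p, both with overlapping groups. For miR-379-5p, 80.1, 95.7 and 94.0 CPM in controls stood against 66.5, 53.4 and 73.1 CPM, which did not overlap but did not pass (log2FC −0.48 ± 0.26, FDR 0.180).

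For miR-411-5p the controls were at 73.3, 84.5 and 117 CPM and the H2O2 libraries at 66.9, 82.5 and 47.4 CPM. The next pair, miR-409-3p and miR-654-3p, did not fall beyond the spread. Levels of miR-409-3p were 55.8, 66.6 and 86.5 CPM in controls and 97.1, 70.8 and 68.4 CPM with H2O2, and those of miR-654-3p were 82.8, 87.6 and 94.8 CPM against 103, 72.1 and 72.8 CPM. The groups of each of these members overlapped.

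Overlap was also seen for the last 3 abundant members. Controls and H2O2 libraries of miR-381-3p were at 38.4, 51.3 and 33.3 CPM and at 39.5, 59.1 and 27.5 CPM. Those of miR-494-3p were at 31.7, 37.8 and 35.2 CPM and at 30.0, 33.0 and 29.3 CPM, and those of miR-369-5p at 23.8, 28.3 and 25.7 CPM and at 30.7, 22.2 and 25.3 CPM. Over all tested members, 13 of 33 had groups that did not overlap, 12 lower and 1 higher, beside 41.6% of all tested miRNAs in either direction and 22.2% lower.

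The 13 members below the test's filter could not be called. Among them miR-539-5p, singled out after its counts were seen, had 8, 6 and 14 counts in the controls and 1, 0 and 1 with H2O2. Summed by group, this was a 14.8-fold lower level, with a 95% interval of 3.73 to 128 for counting error alone. Both arms of the MIR539 hairpin were thus lower in each H2O2 library than in any control.

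After exposure before differentiation, the members called were all lower, and the direction of the members' median moved with the control used. Of 32 tested, 8 members (25%) were called and all 8 were lower, beside 15.3% of all 868 tested miRNAs, of which 9.91% were called lower and 5.41% higher. Without H2O2 library 1 or 2 there were 0 members called (7 and 8 at an unadjusted p under 0.05), beside 0.922% and 1.38% of all tested miRNAs. None of the 8 was among the 10 called in co-treatment. The median log2FC was −0.72 over the tested members (0.074 with control 1 alone, −1.20 with control 2 alone). Over all tested miRNAs it was −0.19 (0.083 with control 1 alone, 0.035 with control 2 alone). A comparison of 2 controls with 3 H2O2 libraries gives little hold on the spread, and by the quasi-likelihood test 1 member was called lower, beside 1.5% of all tested miRNAs called lower and 1.96% called in either direction.

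That member was miR-323b-3p, at 21.1 and 29.3 CPM in the controls and at 5.85, 5.83 and 7.43 CPM with H2O2. The groups were far apart and the libraries within each were close (log2FC −1.98 ± 0.33, FDR 0.000459, quasi-likelihood FDR 0.0348). Its relative miR-323a-3p, with which it shares the 16 bases shown above, was at 111 and 91.5 CPM in controls and at 25.6, 38.9 and 35.4 CPM with H2O2 (log2FC −1.61 ± 0.32, FDR 0.00369). Both were lower against either control alone, miR-323b-3p by a log2FC of −1.73 and −2.13 and miR-323a-3p by −1.74 and −1.39, against control 1 and control 2 in turn.

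The same held for miR-485-5p, a regulator of the synaptic vesicle protein SV2A in neurons. Its controls had 45 and 33 counts and its H2O2 libraries 12, 8 and 11 (6.04 and 5.03 CPM against 1.40, 1.08 and 1.46 CPM), with no overlap. The log2FC was −2.06 ± 0.41 (FDR 0.00201), and it was −2.18 against control 1 and −1.85 against control 2. The call of miR-543 rested on 7 and 10 counts in controls and 3, 1 and 0 with H2O2, a 7.12-fold lower level with a 95% counting interval of 2.32 to 29.1 (log2FC −2.75 ± 1.02, FDR 0.0471). It passed the filter through its controls alone, so that only a fall could be called, and apart from members admitted in this way 7 of 30 were called.

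For the other 4 calls the controls disagreed. In neurons, miR-134-5p limits the growth of dendritic spines by acting on Limk1. It was at 15.3 CPM in control 1, 57.5 CPM in control 2 and 7.25, 10.6 and 10.3 CPM with H2O2. All H2O2 libraries were below both controls (log2FC −1.95 ± 0.55, FDR 0.0188), by −0.71 against control 1 and −2.55 against control 2.

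The gap between the controls was wider still for miR-409-3p, at 32.2 and 157 CPM, with 19.3, 29.1 and 26.7 CPM after H2O2 (log2FC −1.91 ± 0.61, FDR 0.0311). For miR-382-5p the controls held 43.6 and 195 CPM and the H2O2 libraries 30.6, 41.7 and 34.7 CPM (log2FC −1.74 ± 0.58, FDR 0.0408). For miR-369-5p they held 13.7 and 48.0 CPM against 10.4, 9.76 and 10.1 CPM (log2FC −1.61 ± 0.52, FDR 0.0433). In each of these, control 1 lay close to the H2O2 libraries: against control 1 alone the log2FC was −0.37, −0.29 and −0.44, and against control 2 alone −2.58, −2.38 and −2.18, for miR-409-3p, miR-382-5p and miR-369-5p in turn.

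**Figure D2:**
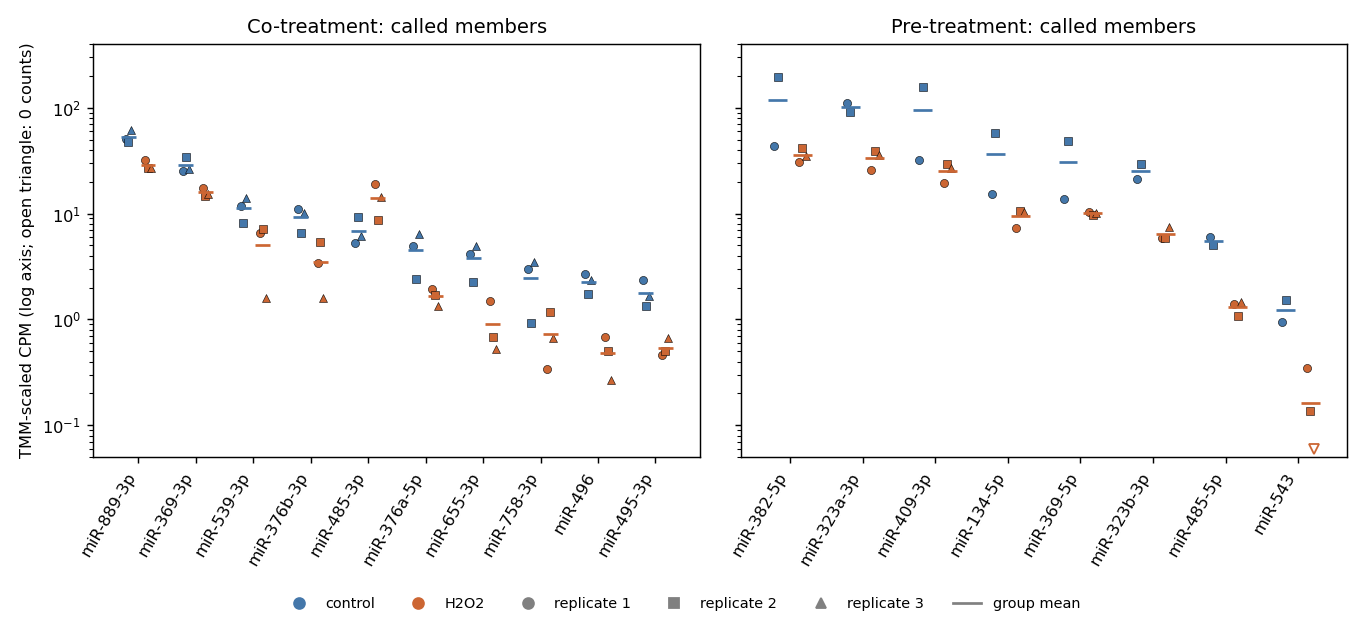
TMM-scaled CPM (log axis) in each library of the members called in co-treatment (left) and in pre-treatment (right), ordered by control mean. Circles, squares and triangles are replicates 1, 2 and 3, lines are group means and an open triangle marks a library with 0 counts. The 2 pre-treatment controls lie close together for miR-323a-3p, miR-323b-3p and miR-485-5p and far apart for miR-382-5p, miR-409-3p, miR-134-5p and miR-369-5p.

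Abundant members that were not called showed the same disagreement, and for some of them it set the direction. Controls of miR-379-5p were at 34.6 and 112 CPM and H2O2 libraries at 46.8, 62.9 and 57.4 CPM, between the controls, so that the log2FC of −0.40 ± 0.49 was 0.68 against control 1 and −0.94 against control 2. Likewise miR-411-5p lay at 36.4 and 92.4 CPM against 44.3, 53.7 and 61.4 CPM (0.55 against control 1 and −0.73 against control 2). For miR-889-3p, 5.91 and 39.5 CPM in controls enclosed 13.3, 19.9 and 16.3 CPM (log2FC −0.46 ± 0.70, 1.48 against control 1 and −1.19 against control 2).

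Values of miR-654-3p were 27.1 and 71.2 CPM in controls and 19.6, 27.2 and 28.8 CPM with H2O2 (log2FC −0.11 against control 1 and −1.43 against control 2). Those of miR-381-3p were 29.4 and 54.3 CPM against 27.4, 29.4 and 33.0 CPM (0.025 and −0.79). Only miR-494-3p among the abundant members was higher in every H2O2 library than in either control, at 8.99 and 19.7 CPM against 20.8, 22.5 and 22.8 CPM, and it did not pass (log2FC 0.62 ± 0.41, FDR 0.446). In all, 12 of 32 tested members had groups that did not overlap, 11 lower and 1 higher, beside 46% of all tested miRNAs in either direction, 22.7% lower and 23.3% higher.

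Members not called in pre-treatment included those that fell in co-treatment. The 3p arm miR-369-3p was at 7.38 and 17.1 CPM in controls and at 16.6, 22.8 and 24.4 CPM with H2O2, a log2FC of 0.80 ± 0.45 that did not pass (FDR 0.336) and was 1.52 against control 1 and 0.38 against control 2. For miR-376b-3p the values were 1.21 and 3.35 CPM against 3.16, 2.58 and 1.06 CPM (log2FC 0.0026 ± 0.65). Counts of miR-495-3p were too low for the test, at 2 and 9 in controls and 1 in each H2O2 library.

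Along the cluster, with both pre-treatment controls used, hairpins 13 to 23 held calls in co-treatment and none in pre-treatment, while the stretches on either side held calls of both experiments. In co-treatment, 2 of 11 tested members were called in hairpins 1 to 12, 5 of 9 in hairpins 13 to 23 and 3 of 13 in hairpins 24 to 34, and in pre-treatment 2 of 10, 0 of 9 and 6 of 13. Over all tested miRNAs, 26.2% and 15.3% were called. The pre-treatment values moved with the control. Against control 1 and control 2 alone, the log2FC was 1.48 and −1.19 for miR-889-3p and 0.79 and −1.76 for miR-539-3p, both of hairpins 13 to 23. Of the calls in hairpins 24 to 34, miR-382-5p, miR-409-3p and miR-369-5p were at −0.29, −0.37 and −0.44 against control 1 alone. There miR-134-5p, miR-323b-3p and miR-485-5p were at −0.71, −1.73 and −2.18. Among the hairpins of the list, those of 4 of the pre-treatment calls were consecutive, MIR382, MIR134, MIR485 and MIR323B, spread over chr14:101520643-101522637, and the annotation placed all 4 in exons of MEG9. These 3 stretches were set by hairpin number, and the difference between them was not tested. Position and log2FC were weakly related over members (Pearson r = 0.21 in co-treatment, n = 33, and −0.23 in pre-treatment, n = 32).

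**Figure D3:**
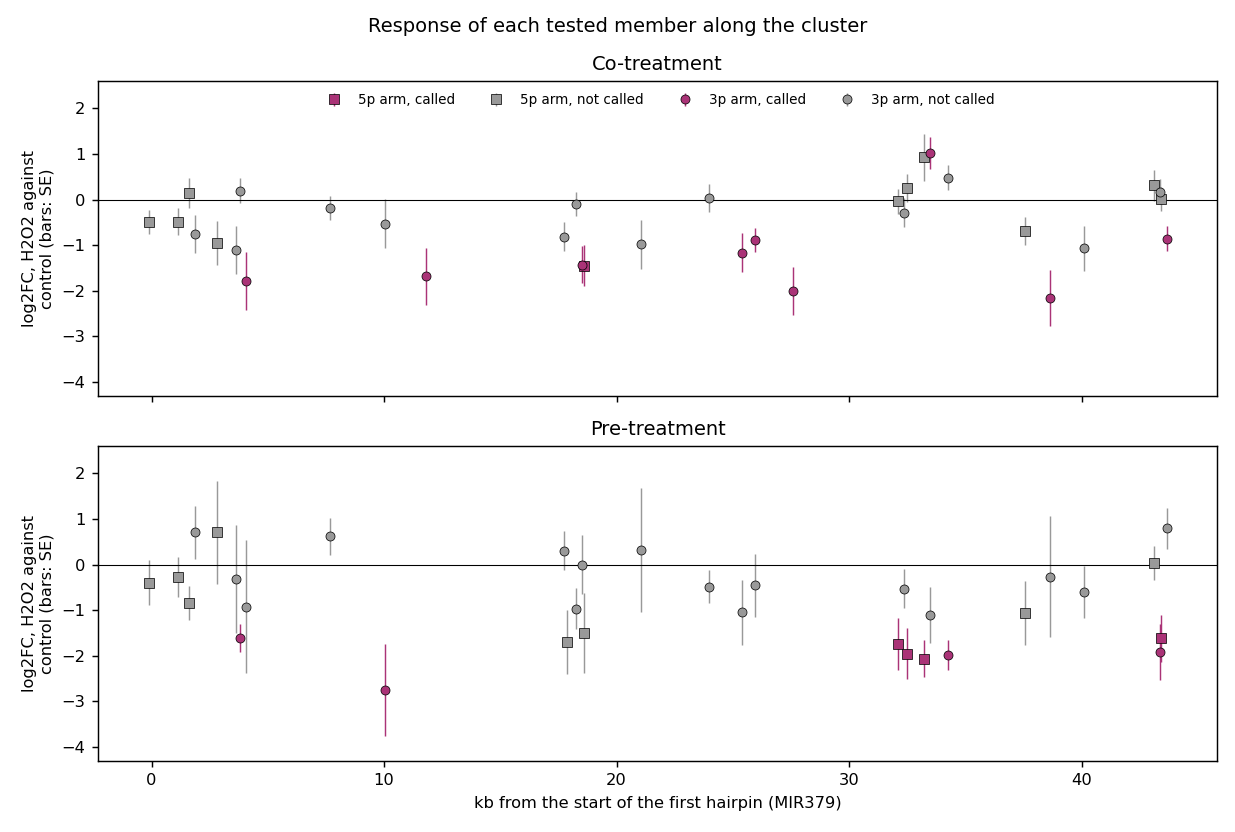
log2FC of H2O2 against control for each tested member at its distance in kb from the start of the first hairpin, MIR379, for co-treatment (top) and pre-treatment (bottom). Bars are SE, squares 5p arms, circles 3p arms and purple symbols calls. With both controls used, no member of hairpins 13 to 23, from MIR376C to MIR487A, was called in pre-treatment, where 6 of the 8 calls lie in hairpins 24 to 34 at the right.

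The responses followed the base composition of the miRNAs. In co-treatment the log2FC of the members rose with the GC content of the mature sequence (Pearson r = 0.67, Spearman rho = 0.72, n = 33 members that share libraries), and over all tested miRNAs with a known sequence r was 0.56 (n = 700). In pre-treatment the relation ran the other way, with r = −0.43 over members (rho = −0.45, n = 32) and −0.41 over all (n = 768). The median GC content was 33.3% for the 9 members called lower in co-treatment, 53.5% for the 8 called in pre-treatment and 45.5% for the tested members of either experiment.

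Counted by composition, with limits set after the data were seen, 7 of 10 tested members under 40% GC were called lower in co-treatment, beside 62 of 131 of all tested miRNAs under 40% GC (47.3%). In pre-treatment, 6 of 10 tested members at 50% GC or more were called lower, and 68 of 428 of all tested miRNAs in that range. After the trend with GC content was taken out of each library, a correction that could be made for 16 members with a mean of at least 10 CPM, 0 members were called in co-treatment in the quasi-likelihood test (1 at an unadjusted p under 0.05), against 3 of the same 16 without the correction. Over all 363 miRNAs of that set, 12.4% were called with the correction and 37.2% without it. The log2FC went from −0.72 to 0.16 for miR-889-3p and from −0.68 to 0.51 for miR-369-3p, while miR-485-3p kept its direction (1.21 and 1.04, FDR 0.0609 after the correction). The members with the lowest log2FCs, miR-496 and miR-655-3p, were too scarce for it.

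In pre-treatment the correction could be made for 14 members, among them 6 of the 8 called, without miR-485-5p and miR-543. Of the 14, 3 were called with it (miR-323a-3p, miR-323b-3p and miR-369-5p) and 3 without it. Over all 348 miRNAs of that set, the shares called were 9.77% and 17.5%. The FDR after correction was 0.0814 for miR-134-5p, 0.0779 for miR-409-3p and 0.0564 for miR-382-5p. The corrected log2FC was −2.01 for miR-323b-3p, −1.81 for miR-323a-3p, −1.84 for miR-134-5p, −1.82 for miR-409-3p, −1.82 for miR-382-5p and −1.88 for miR-369-5p (range without the correction in the same set, −1.72 to −2.18).

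**Figure D4:**
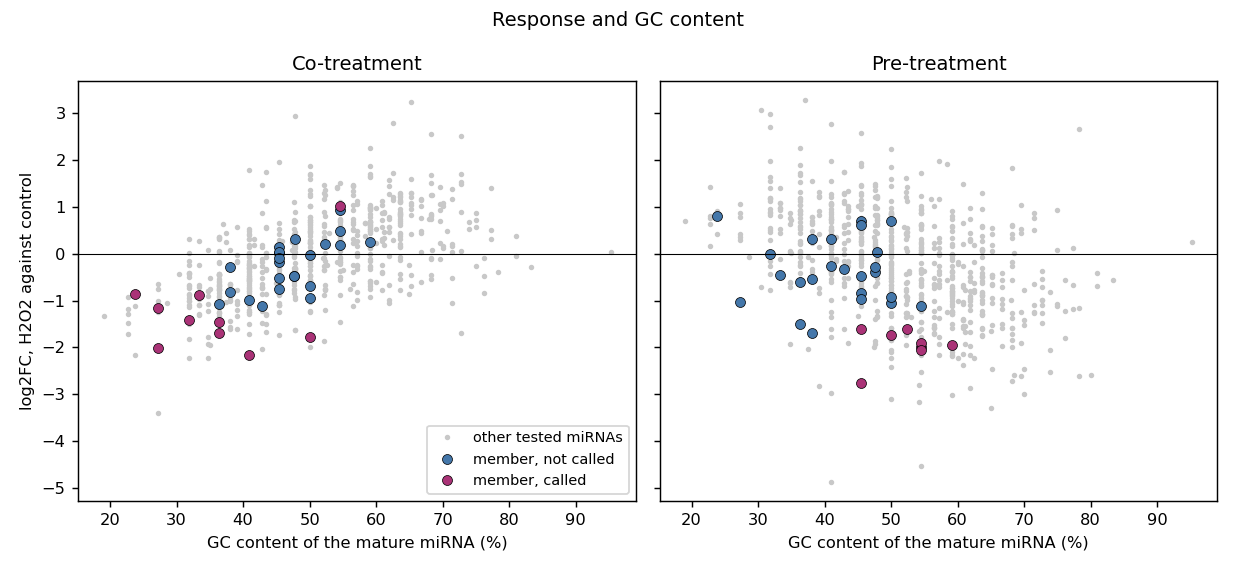
log2FC of H2O2 against control by the GC content (%) of the mature miRNA, in co-treatment (left) and pre-treatment (right). Grey points are other tested miRNAs with a known sequence and larger points are members, purple where called. The trend rises in co-treatment (r = 0.67 over members) and falls in pre-treatment (r = −0.43).

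The difference between the responses was tested itself, with an interaction term in a joint quasi-likelihood model of the 11 libraries. Each experiment had its own controls and H2O2 libraries, so the regimen and anything else that differed between the experiments cannot be told apart. Of 37 tested members, 9 passed an FDR of 0.05, beside 27.3% of all 945 tested miRNAs, and 8 of the 9 had the lower log2FC in pre-treatment, beside 14.4% of all tested miRNAs called lower and 12.9% called higher. The split moved with the pre-treatment control. With control 1 alone, the members' median pre-treatment log2FC was 0.074, beside 0.083 over all tested miRNAs. With control 2 alone it was −1.20, beside 0.035. The difference (pre-treatment minus co-treatment) was −2.44 ± 0.42 for miR-323b-3p (FDR 0.00211), −2.99 ± 0.68 for miR-485-5p (FDR 0.00659), −1.80 ± 0.41 for miR-323a-3p (FDR 0.00666) and −2.16 ± 0.62 for miR-134-5p (FDR 0.0189). In co-treatment these 4 had log2FCs of 0.48, 0.93, 0.20 and 0.25, none of them called. Their co-treatment values in controls and H2O2 libraries were 16.0, 20.7 and 20.0 against 27.97, 24.2 and 27.1 CPM for miR-323b-3p, which did not overlap, 13.96, 22.8 and 24.7 against 22.9, 32.5 and 18.2 CPM for miR-134-5p, and 13, 13 and 5 against 22, 11 and 31 counts for miR-485-5p.

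The response of miR-485-3p also differed (−2.15 ± 0.70, FDR 0.0328), called higher in co-treatment and at 10.3 and 4.57 CPM in controls against 1.29, 4.61 and 4.51 CPM with H2O2 in pre-treatment, where it was not called (log2FC −1.58 against control 1 and −0.34 against control 2). Both arms of the MIR485 hairpin therefore had a lower log2FC in pre-treatment than in co-treatment. The other differences were −2.03 ± 0.62 for miR-409-3p (FDR 0.0254), −1.57 ± 0.53 for miR-369-5p (FDR 0.0385) and −1.65 ± 0.59 for miR-382-5p (FDR 0.0479). With control 1 as the only pre-treatment control these became −0.57, −0.49 and −0.29, none of them called, and the difference of miR-134-5p became −1.0 (FDR 0.110), while those of miR-323b-3p, miR-485-5p and miR-323a-3p were −2.25, −3.17 and −1.99. The difference of miR-485-3p was −1.37 and not called with control 2 alone.

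The 1 member with the opposite difference was miR-369-3p (1.69 ± 0.49, FDR 0.0195), the other arm of the hairpin that gives miR-369-5p (MIR369, chr14:101531935-101532004). Both arms come from 1 hairpin, so their ratio does not depend on how much of the hairpin was made or on the scaling of the libraries. The log2 ratio of 5p to 3p counts was −0.08, −0.29 and −0.03 in co-treatment controls and 0.81, 0.59 and 0.73 with H2O2. In pre-treatment it was 0.88 and 1.48 in controls and −0.67, −1.21 and −1.26 with H2O2. The ratio thus moved in opposite directions, by 0.84 in co-treatment and −2.23 in pre-treatment, without overlap in either, although an exact permutation test of 3 against 3 or 2 against 3 libraries cannot give a p below 0.1. The GC content was 45.5% for miR-369-5p and 23.8% for miR-369-3p, and with the GC correction the difference in response of miR-369-3p turned from 1.69 to −0.62 (FDR 0.259). After the correction, the log2FC of the 5p arm less that of the 3p arm went from 0.86 to −0.04 in co-treatment and from −2.37 to −1.77 in pre-treatment.

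**Figure D5:**
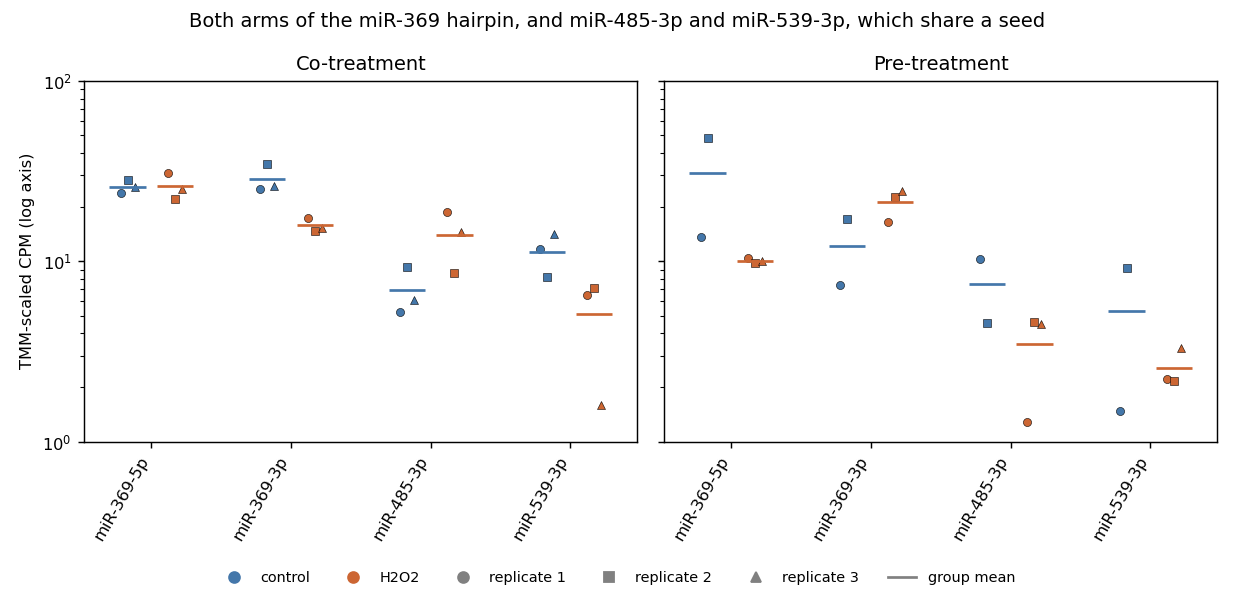
TMM-scaled CPM (log axis) by library of both arms of the MIR369 hairpin and of miR-485-3p and miR-539-3p, which share the seed UCAUACA, in co-treatment (left) and pre-treatment (right). Marker shapes give the replicate number and lines the group mean. Among the arms, H2O2 lies below control for miR-369-3p in co-treatment and for miR-369-5p in pre-treatment.

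Of 12 hairpins with both arms among the members, 5 had at least 10 counts on average in each arm, a minimum chosen after the data were seen. Among their 10 ratios, the only other one without overlap was that of MIR409 in pre-treatment, where the log2 ratio of 5p to 3p was −2.78 and −4.88 in controls and −2.21, −2.20 and −2.49 with H2O2. There miR-409-5p was at 34 counts in each control while miR-409-3p was at 240 and 1027 counts, so the difference between the controls lay in the 3p arm. In control libraries of both experiments, miR-382-5p exceeded miR-382-3p and miR-409-3p exceeded miR-409-5p.

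Of the 4 shared seeds, 3 could not be compared. The pair miR-376a-3p and miR-376b-3p and the pair miR-379-3p and miR-411-3p each had 1 or 2 members with too few counts to test, and neither miR-487a-3p nor miR-154-3p passed 4 counts in any library, so UCAUACA was the only shared seed with both members tested. Its pair had called changes of opposite sign in co-treatment. In pre-treatment neither was called, with log2FCs of −1.04 for miR-539-3p and −1.11 for miR-485-3p.

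A second group of miRNAs from the maternal 14q32 domain, 18 names from the region around RTL1 upstream of the cluster, was much scarcer. It summed to 10.0 to 10.95 CPM in co-treatment controls and 21.5 to 24.8 CPM with H2O2. Of its 4 tested members, 2 were called and both were higher: miR-370-3p (3.68 ± 1.39 to 8.86 ± 1.47 CPM, log2FC 1.26 ± 0.36, FDR 0.00797) and miR-432-5p (2.31 ± 0.32 to 5.70 ± 1.40 CPM, log2FC 1.30 ± 0.38, FDR 0.00978), with GC contents of 68.2% and 52.2%. In pre-treatment, 0 of its 5 tested members were called by either edgeR test, 2 of them at an unadjusted p under 0.05, miR-432-5p at a log2FC of 1.21 (FDR 0.0653) and miR-370-3p at −2.0 (FDR 0.0872).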

How the data were processed

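Small RNA libraries (QIAseq miRNA kit, Illumina NextSeq) of 11 SH-SY5Y samples were grouped by their labels. The authors deposited raw read counts per mature miRNA, made, per the study's methods and the submitters' processing notes, with Cutadapt 2.10, Bowtie2 2.4.1 (hg19) and HTSeq 0.7.2. Use of molecular identifiers, the treatment of reads with several alignments and the miRBase release are not given in the sources used here. Tables with the authors' log2 fold changes, p-values and FDR were deposited as well and were not used. In R 4.3.3, edgeR 4.0.16 was run on the counts with TMM scaling and the exact test, per experiment. A miRNA was tested if it exceeded 0.936 CPM in 3 or more co-treatment libraries or 0.721 CPM in 2 or more pre-treatment libraries, the CPM that 5 counts give in the smallest library of each experiment. Standard errors came from quasi-likelihood fits. The alternatives were DESeq2 1.42.0, other scalings, filters and thresholds, a GC correction (lowess on mature GC content, span 0.5, mean CPM of at least 10), a replicate block and leaving out each library. Same-numbered libraries did not deviate together (r of 0.04, −0.17 and −0.18 in co-treatment, 0.24 and −0.04 in pre-treatment). Mature sequences were known for 88.8% and 88.1% of the miRNAs entering the GC correction. Hairpins were placed by sequence match to GRCh37, and MIR381 by the annotation. The exact and quasi-likelihood tests of H2O2 against control were tried on simulated data. The interaction model, the joint fit of the 11 libraries, DESeq2, the GC correction and the replicate block were not. The members, the upstream 14q32 list and the marker lists were chosen with earlier results of these data known. Values by library are given for the 10 highest members, for up to 12 called per experiment and for the 6 with the lowest interaction p.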

Additional observations from a re-analysis of the deposited data

Results flagged for a closer look

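For 9 members the response to H2O2 differed between the experiments in the quasi-likelihood interaction test over 11 libraries (FDR under 0.05), beside 27.3% of all tested miRNAs. Given as pre-treatment minus co-treatment log2FC, the differences were −2.44 for miR-323b-3p, −2.99 for miR-485-5p, −1.80 for miR-323a-3p, −2.16 for miR-134-5p, −2.03 for miR-409-3p, −2.15 for miR-485-3p, −1.57 for miR-369-5p and −1.65 for miR-382-5p, and 1.69 for miR-369-3p. Called whichever library was left out were miR-323a-3p, miR-323b-3p and miR-485-5p. Without pre-treatment control 2, which held the most of miR-382-5p, miR-409-3p, miR-369-5p and miR-134-5p, none of these 4 was called. Against control 1 alone the members' median pre-treatment log2FC was 0.074, and against control 2 alone it was −1.20. Regimen and experiment cannot be told apart, and the cause was not tested.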

How the results depend on the processing

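The counts of members called moved with the processing, and in some settings of either experiment so did the sign of the members' median log2FC. In co-treatment, 10 members were called, with 7 by the quasi-likelihood test, 7 by DESeq2, 8 with library-size scaling and 10 with DESeq2 size factors. The shares of all tested miRNAs called were 26.2%, 22.9%, 26.2%, 24.8% and 27.3% in turn. The count was 4 with the filter required in all libraries, 0 in one quasi-likelihood fit of the 11 libraries (9 members at an unadjusted p under 0.05), 0 with the GC correction and 3 over the same miRNAs without it. Over all tested miRNAs, the shares called in these settings were 33.4%, 8.89%, 12.4% and 37.2% in turn. The members' median log2FC of −0.52 became 0.27 and 0.16 in those last 2 settings, which hold 16 members. Leaving out 1 library gave 2 to 12 calls, with 2 without control 1, control 3 or H2O2 library 3, and 3 without H2O2 library 1. Over all tested miRNAs, 13.9% to 35.3% were called in those settings. The summed level had a log2 difference of −0.19, with −0.27 to −0.025 when 1 library was left out. In pre-treatment, 8 calls became 1 by the quasi-likelihood test, 7 by DESeq2, 3 without a low-count filter, and 3 with the GC correction and over the same miRNAs without it. Of all miRNAs in that set, 9.77% were called with the correction and 17.5% without it. Leaving out 1 library gave 0 to 15 calls, 15 without control 1, 14 without control 2 (8 of them higher), 0 without H2O2 library 1 or 2 and 1 without H2O2 library 3, with medians of −1.20 to 0.074. With 1 control left, that control is assumed to vary like the H2O2 libraries. The 9 interaction calls became 4 to 18 without 1 library, 4 without co-treatment control 1, 5 without co-treatment H2O2 library 1 or pre-treatment H2O2 library 1 or 3, and 18 without pre-treatment control 2 (13 of them higher in pre-treatment).

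The replicate number, which the check of deviations did not show to pair the libraries, was also used as a block. With this replicate block, 2 members were called in co-treatment, 0 in pre-treatment and 4 for the interaction, beside 14.1%, 1.73% and 12.2% of all tested miRNAs. Together with the GC correction, 0 members and 0% of all miRNAs of the set were called in either experiment. In co-treatment, signs turned with the GC correction, without and with the block, for miR-889-3p (0.16 and 0.16), miR-494-3p (0.28 and 0.27) and miR-369-3p (0.51 and 0.54), which were negative over the same miRNAs without it. Those of miR-654-3p (0.35 and 0.34) and miR-382-5p (0.13 and 0.12) had already turned over that set of miRNAs without the correction (0.07 and 0.14). In pre-treatment miR-369-3p turned to −0.11 and −0.22, and its interaction to −0.62. The cause was not tested. Leaving out 1 library turned signs of members that were not called, with log2FC ranges of −0.29 to 0.26 for miR-381-3p in co-treatment and, in pre-treatment, −0.94 to 0.68 for miR-379-5p, −0.79 to 0.025 for miR-381-3p, −0.73 to 0.55 for miR-411-5p, −1.21 to 4.79 for miR-496, −1.76 to 0.79 for miR-539-3p, −2.44 to 4.64 for miR-758-3p and −1.19 to 1.48 for miR-889-3p. Over all tested miRNAs, the share of calls that were higher was 40.6% in co-treatment, 50.5% with library-size scaling and 56.9% with the filter in all libraries, and 35.3% in pre-treatment, 42.6% with library-size scaling and 23.5% by the quasi-likelihood test. All p-values rest on 2 or 3 libraries a group, and members under 10 CPM could not be given the GC correction.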

Other observations

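Of the 27 mature miRNAs of the same stretch that were not on the member list, miR-487b-3p was the one with sizeable counts, 81 to 292 per library, and was singled out after its values were seen.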
